A study of Mus musculus with 4 samples.

Results

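The testis ADAM genes encode sperm and spermatid proteins of the "a disintegrin and metalloprotease" family. The 10 genes described here are Adam1a, Adam1b, Adam2, Adam3, Adam5, Adam18, Adam24, Adam29, Adam30 and Adam32, chosen by gene name. All 10 were found among the 22552 gene symbols of the tables. Their RNA was measured by sequencing in haploid cells sorted with Hoechst dye from testes of male mice aged 23 days. There were 2 libraries from Sox30 knockout mice and 2 from wild-type mice. Sox30 encodes a transcription factor of the SOX family, and the deleted segment is not given. The background strain was labelled DBA/C58/ICR and DBA/C60/ICR for knockout libraries 1 and 2, and DBA/C57/ICR and DBA/C59/ICR for wild-type libraries 1 and 2. Whether each library stands for its own animal is not stated, and the p-values therefore reflect only how these 4 libraries vary, which may be technical.

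ADAM proteins carry a prodomain, a metalloprotease-like domain, a disintegrin domain and a cysteine-rich region. Many of the testis members have lost the zinc-binding residues of an active protease and act as surface proteins instead. In mouse germ cells they are folded in the endoplasmic reticulum, paired with one another, carried to the sperm surface and trimmed by proprotein convertases. Mouse sperm that lack ADAM3 on their surface bind the egg coat poorly and fail to pass from the uterus into the oviduct.

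Levels are given as FPKM, fragments per kilobase of transcript scaled to the mapped fragments of the library, so they can be compared between genes per length. Changes are differences of log2(FPKM + 1), knockout minus wild type, a scale that understates the change of low genes. A gene was called when its limma adjusted p, over the 9124 genes with a mean of at least 1 FPKM, was under 0.05. The total read number behind the values is unknown.

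Adam24 and Adam29 fell to near 0 and Adam1a to at most 2.27 FPKM in the knockout, whereas the 5 most abundant members and the low members Adam1b and Adam30 stayed between 13.3 and 324 FPKM. Of the 10 members 3 fell, 0 rose and 7 did not pass the limma test. Among all genes tested 13.4% fell and 1.95% rose. The 3 that fell were also the 3 of 10 with an unadjusted limma p under 0.05. Over all genes tested 2860 of 9124 were under it, a share near that of the members. Both knockout values lay below both wild-type values for 6 of the 10 members, against 38.6% of all genes tested, and above both for 0 of 10, against 22.2%. The median log2 change was -0.69 over the members and -0.23 over all genes tested. Without wild-type library 1 the fallen members numbered 1, Adam29, against 4.23% of all genes tested. Without wild-type library 2 they numbered 0 in limma, as did the fallen genes over all genes tested, with 2 members and 1412 of all genes at an unadjusted p under 0.05. When knockout library 1 was left out they numbered 8, against 33.7% of all genes tested.

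**Figure D1:**
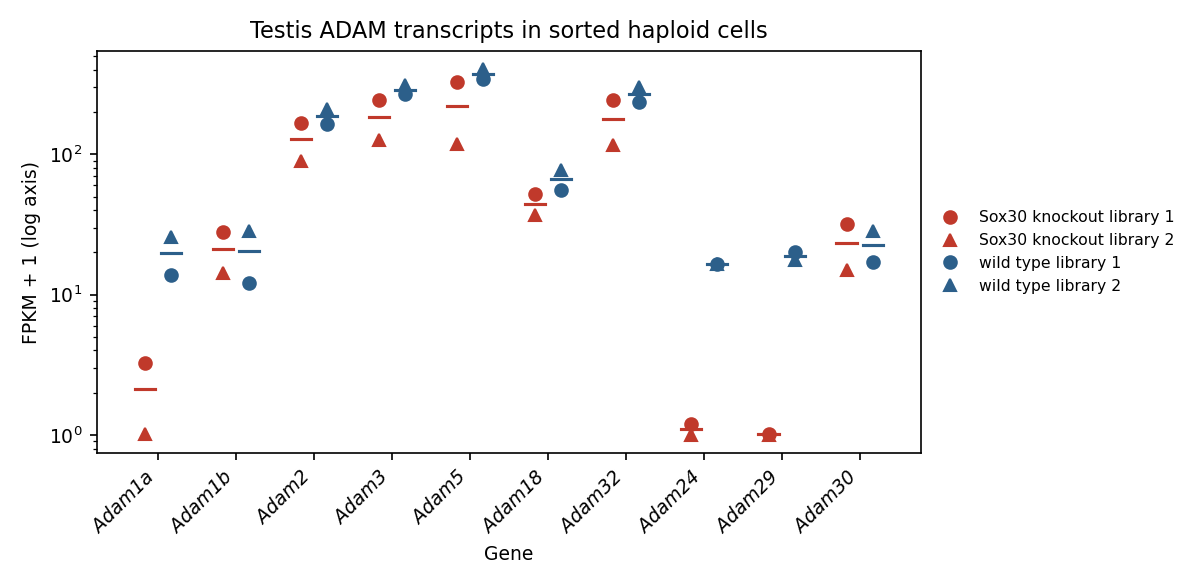
Level of each testis ADAM gene (FPKM + 1, log axis) in 2 Sox30 knockout libraries (red) and 2 wild-type libraries (blue), with bars at the mean of each genotype. Adam24 and Adam29 lie at 0 or near it in the knockout, while Adam2, Adam3, Adam5, Adam18 and Adam32 stay above 35 FPKM in every library.

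Sox30 itself stood at 1.46 and 3.16 FPKM in the knockout pair, against 11.4 and 16.2 FPKM in the wild-type pair, and passed as lower (limma adjusted p = 0.0219). Transcript from the targeted gene was thus still counted in both knockout libraries. Markers of pachytene spermatocytes, the meiotic stage before haploid cells, were present in both genotypes, with summed levels of 6048 to 6606 FPKM in knockout cells and 5288 to 6198 FPKM in wild-type cells, and 0 of 12 tested markers passed in limma, with 2 at an unadjusted p under 0.05. Ldhc alone made up 5056 to 5186 FPKM of these sums in knockout cells and 4016 to 5002.5 FPKM in wild-type cells. Of the 13 pachytene markers 6 had both knockout values below both wild-type values and 3 had both above. Over all genes tested these shares were 38.6% and 22.2%. The median log2 change of the pachytene markers tested was -0.29, against -0.23 over all genes tested. Of 13 round spermatid markers 8 fell and of 8 elongating spermatid markers 7 fell, where 13.4% of all genes tested fell. The round spermatid markers summed to 884 to 1365 FPKM in knockout cells and 2722 to 2814 FPKM in wild-type cells. The elongating spermatid markers summed to 35.4 to 51.1 FPKM in knockout cells and 7124 to 12210 FPKM in wild-type cells. Some transcripts of other testis cells were also higher in the wild type. The Leydig marker Insl3 was listed at values in the knockout pair that round to 0, against 54.8 and 30.3 FPKM in the wild-type pair. Of the 8 Leydig markers 4 were at exactly 0 in both knockout libraries and above 0 in both wild-type libraries. The 8 summed to at most 0.0674 FPKM in knockout cells and to 37.3 to 60.3 FPKM in wild-type cells, there mostly from Insl3. Of the 10 measured blood and macrophage markers, 3 were at 0 in both knockout libraries and above 0 in both wild-type libraries. Both knockout values lay below both wild-type values for 5 of the 10 and above both for 0, against 38.6% and 22.2% of all genes tested. The same shares apply to the counts of this kind below, and they leave out genes with a mean below 1 FPKM. The 10 summed to 0.461 to 10.1 FPKM in knockout cells and to 149 to 248 FPKM in wild-type cells, there mostly from Hba-a1 (220 and 109 FPKM). Cd68 was at 0.811 FPKM in knockout library 1 and at 0 in knockout library 2 and both wild-type libraries. The 9 measured Sertoli markers, 1 of them at 0 in all 4 libraries, summed to 26.7 to 64.5 FPKM in knockout cells. In wild-type cells they summed to 84.3 to 225 FPKM, and most of each sum came from Clu. Only 2 of the 9 had both knockout values below both wild-type values, and 0 had both above. Of 3 Sertoli markers tested 0 passed in limma, with 1 at an unadjusted p under 0.05. Of the 5 peritubular markers 2 were at 0 in the knockout pair alone. The 5 summed to 1.53 to 2.23 FPKM in knockout cells and to 7.61 to 9.44 FPKM in wild-type cells. Of the 5, 3 had both knockout values below both wild-type values and 0 had both above. Tagln was at 0.114 and 2.23 FPKM in the knockout pair and at 0.948 and 0.613 FPKM in the wild-type pair. Of the 10 spermatogonial markers 5 were at 0 in the knockout pair alone and 1 at 0 in all 4 libraries. The 10 summed to 20.1 to 21.2 FPKM in knockout cells and to 40.2 to 43.4 FPKM in wild-type cells. Of the 10, 7 had both knockout values below both wild-type values and 1, Id4, had both above. Id4 made up most of the knockout sums, at 12.96 and 15.48 FPKM, against 7.496 and 7.68 FPKM in wild-type cells. It did not pass (limma adjusted p = 0.157). Gene symbols listed at 0 numbered 9329 and 11112 in the knockout pair and 6414 and 5915 in the wild-type pair. How many of all symbols were at 0 in the knockout pair alone was not counted. The part of these markers and zeros in the changes of the ADAM genes was not tested. In sorted samples of this kind fewer cells of a stage and less RNA per cell cannot be told apart.

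Adam1a and Adam1b, the alpha subunits of fertilin, are neighbouring genes on chromosome 5, of which Adam1a fell and Adam1b did not pass; the difference between the changes of the pair was not tested. ADAM1A stays in the endoplasmic reticulum of testis germ cells and pairs there with ADAM2, and ADAM1B pairs with ADAM2 on sperm. Adam1a was at 2.27 and 0.0122 FPKM in knockout libraries 1 and 2, against 12.8 and 24.9 FPKM in wild-type libraries 1 and 2. The knockout libraries both lay below the wild-type ones, and they also differed widely from each other. The mean was 1.14 ± 1.60 FPKM in knockout cells and 18.8 ± 8.55 FPKM in wild-type cells (SD, n = 2 each), and Adam1a fell. Its log2 change was -3.38 (SE 0.66, limma adjusted p = 0.0215). Its call ended with a pseudocount of 0.1 (limma adjusted p = 0.108), when low genes were left in (limma adjusted p = 0.0863), and without either wild-type library (limma adjusted p = 0.320 without library 1 and 0.413 without library 2).

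Adam1b was at 26.7 and 13.3 FPKM in the knockout pair and at 11.05 and 27.6 FPKM in the wild-type pair. The genotypes overlapped, and the spread within each was larger than the difference between their means, 20.0 ± 9.51 FPKM in knockout cells and 19.3 ± 11.7 FPKM in wild-type cells (SD, n = 2 each). Its log2 change was 0.10, with a 95% interval of -1.25 to 1.46 (limma adjusted p = 0.919). The wild-type levels of the pair were alike, with 12.8 FPKM for Adam1a and 11.05 FPKM for Adam1b in library 1 and 24.9 and 27.6 FPKM in library 2.

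The coding sequences of Adam1a and Adam1b were identical at 73.6% of aligned positions in GENCODE M21. Of the 50-base words of the Adam1b transcript 32.4% also occur in Adam1a transcripts, so reads from those stretches could be assigned to either gene, and their separate values are uncertain to that extent. Both genes are also annotated as overlapping Tmem116, which was at 30.0 and 16.4 FPKM in knockout cells and 21.6 and 22.4 FPKM in wild-type cells. Adam1a overlaps Mapkapk5 too, at 4.67 and 5.63 FPKM in knockout cells and 2.36 and 3.74 FPKM in wild-type cells. The use of strand in counting is not stated, so reads of overlapping genes cannot be told apart.

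The DNA just upstream of the paired genes is shown because Adam1a passed as lower and Adam1b did not. Each line gives the 250 bases before the annotated start of the gene, 5′ to 3′ on its own strand, from RefSeq on GRCm38.p6, a different build from the authors'. Adam29, the member with the largest fall, is set beside them, and Adam6a, another lost testis ADAM described further on, comes last. Capitals mark ACAAT on either strand (ATTGT on the printed one), a core bound by SOX proteins. The windows are chr5:121521696-121521945 (minus strand), chr5:121503436-121503685 (minus strand), chr8:55906965-55907214 (minus strand) and chr12:113543658-113543907 (plus strand).
Adam1a: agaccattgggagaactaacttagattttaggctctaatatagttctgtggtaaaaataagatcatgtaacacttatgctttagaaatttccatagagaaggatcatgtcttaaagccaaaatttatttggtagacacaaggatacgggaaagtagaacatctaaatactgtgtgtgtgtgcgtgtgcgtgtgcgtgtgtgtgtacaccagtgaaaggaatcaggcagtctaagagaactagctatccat
Adam1b: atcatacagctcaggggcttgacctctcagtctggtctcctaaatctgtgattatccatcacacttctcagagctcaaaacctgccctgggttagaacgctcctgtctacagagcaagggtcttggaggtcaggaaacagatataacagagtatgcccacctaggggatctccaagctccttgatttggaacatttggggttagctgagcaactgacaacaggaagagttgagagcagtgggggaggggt
Adam29: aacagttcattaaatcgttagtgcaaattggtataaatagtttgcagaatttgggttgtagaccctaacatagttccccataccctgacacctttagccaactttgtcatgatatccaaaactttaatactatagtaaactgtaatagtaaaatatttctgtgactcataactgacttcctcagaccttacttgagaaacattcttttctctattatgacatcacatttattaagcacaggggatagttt
Adam6a: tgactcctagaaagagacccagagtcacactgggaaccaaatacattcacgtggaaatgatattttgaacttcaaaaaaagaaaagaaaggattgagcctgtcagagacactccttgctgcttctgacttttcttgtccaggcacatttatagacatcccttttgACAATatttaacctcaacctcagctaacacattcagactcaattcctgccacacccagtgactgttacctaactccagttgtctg

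The upstream stretches of Adam1a and Adam1b had no identical run longer than 7 bases, the same as between Adam1a and Adam29. RefSeq promoter windows of 300 bases, the 250 above with the first 50 of the gene, were at hand for these 3 of the 10 members. Neither ACAAT nor TGACG, a core of the cAMP response element bound by CREM, was found in the 3 windows on either strand. Among 32851 such windows of all genes 31.0% held ACAAT and 20.8% held TGACG. Of 6 windows of other testis ADAM genes 4 held ACAAT and 0 held TGACG. The 250-base upstream stretches of Adam6a and Adam6b share a run of 149 bases that holds the ACAAT of each, so these are not separate matches. A match or its absence describes the letters of the window and nothing more.

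Adam2, which encodes the beta subunit of fertilin and is switched on during meiosis, remained abundant. Adam2 was at 166 and 88.6 FPKM in the knockout pair and at 163 and 208 FPKM in the wild-type pair. Knockout library 1 lay between the wild-type libraries and knockout library 2 lay below both. The mean was 127 ± 54.9 FPKM in knockout cells and 186 ± 32.1 FPKM in wild-type cells (SD, n = 2 each). The log2 change of -0.60 had a 95% interval of -1.54 to 0.35 (limma adjusted p = 0.338).

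Adam3, or cyritestin, is the sperm surface protein on which migration into the oviduct and binding to the egg coat depend in the mouse. Adam3 was at 243 and 125 FPKM in the knockout pair and at 266 and 310.5 FPKM in the wild-type pair. The groups did not overlap, though knockout library 1 lay close to wild-type library 1, and the log2 change of -0.72 did not pass (95% interval -1.67 to 0.23, limma adjusted p = 0.257).

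Adam5 and Adam18 encode further non-fertilin surface ADAMs of the testis, also called tMDCII and tMDCIII. Adam5, the most abundant member by mean level in either genotype, was at 324 and 118 FPKM in the knockout pair and at 342 and 404 FPKM in the wild-type pair. Its log2 change was -0.92 (95% interval -2.16 to 0.31, limma adjusted p = 0.263), and the low value came from knockout library 2. Adam18 was at 50.9 and 35.8 FPKM in knockout cells and at 54.8 and 76.5 FPKM in wild-type cells. Both knockout values were below both wild-type values, and the log2 change of -0.59 did not pass (95% interval -1.43 to 0.25, limma adjusted p = 0.290).

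Adam32, which encodes another ADAM found on mouse sperm, was at 242 and 115 FPKM in knockout cells and at 235 and 301 FPKM in wild-type cells. The groups overlapped, and the log2 change was -0.67 (95% interval -1.69 to 0.36, limma adjusted p = 0.324). Adam30, a lower member encoded on chromosome 3, was at 30.9 and 14.0 FPKM in knockout cells and at 16.2 and 27.3 FPKM in wild-type cells. Both wild-type values lay between the knockout values, with a log2 change of -0.01 (95% interval -1.21 to 1.18, limma adjusted p = 0.990). The change of Adam30 turned positive after median-ratio scaling (0.20) and quantile normalization (0.36). None of these intervals shows that a level was unchanged, and those of Adam3, Adam5 and Adam32 reach down to falls of more than 1.6 on the log2 scale.

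Knockout library 2 was the lower of the knockout pair for 10 of 10 members, where 60.7% of all genes tested were lower in it than in knockout library 1. Its level was 0.703 times that of library 1 for Adam18, 0.533 times for Adam2 and 0.362 times for Adam5, against a median of 0.829 over all genes above 0 in both. In the wild-type pair library 2 was the higher for 8 of 10 members, where 41.1% of all genes tested were lower in it than in library 1. The median over all genes above 0 in both was 1.10 times the level of wild-type library 1. Adam24 and Adam29 were the 2 members lower in library 2, at 0.990 and 0.871 times the level of wild-type library 1. With knockout library 2 as the lone knockout library, Adam2, Adam3, Adam5, Adam18 and Adam32 also passed as lower in limma, with the knockout spread taken to be that of the wild-type pair.

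The order of the abundant members was the same in both genotypes by mean level: Adam5, Adam3, Adam32, Adam2 and Adam18. In knockout library 1 Adam3 and Adam32 were nearly equal, at 243 and 242 FPKM, and in knockout library 2 the 3 leading genes lay between 115 and 125 FPKM with Adam3 first, so the order of the first 3 genes varied between libraries. Adam2 was the fourth in each of the 4 libraries, although its range over libraries overlapped those of the first 3. Adam18, at 35.8 to 76.5 FPKM over the 4 libraries, lay below all levels of the other 4. These 5 genes held 94.5% and 94.6% of the members' summed FPKM in knockout cells and 93.4% and 92.1% in the wild type. The summed level of all 10 members was 1087 and 510 FPKM in knockout cells and 1136 and 1412 FPKM in wild-type cells. Below them, Adam30, Adam1b, Adam1a, Adam29 and Adam24 lay within 11.05 to 27.6 FPKM in wild-type cells, and the range of Adam1a took in those of Adam24 and Adam29.

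Relative to Adam2 in the same library, the abundant members did not pass as changed. Adam3 stood at 1.46 and 1.41 times Adam2 in the knockout libraries and at 1.63 and 1.49 times in the wild-type libraries. Adam32 stood at 1.46 and 1.30 times Adam2 in the knockout and at 1.44 and 1.45 times in the wild type. Adam18 stood at 0.306 and 0.404 times in the knockout and at 0.337 and 0.367 times in the wild type, and Adam5 at 1.95 and 1.33 times in the knockout and 2.10 and 1.94 times in the wild type. For Adam30 the ratio was 0.186 and 0.158 in the knockout and 0.0993 and 0.131 in the wild type, with the knockout values above the wild-type ones. For Adam1b it was 0.161 and 0.150 in the knockout and 0.0678 and 0.132 in the wild type, also without overlap. Neither differed from Adam2 in its change (limma adjusted p = 0.466 for Adam30 and 0.373 for Adam1b). Adam24 stood at 0.00116 and 0 times Adam2 in the knockout and at 0.0958 and 0.0741 times in the wild type, and Adam1a at 0.0136 and 0.000138 times in the knockout and 0.0786 and 0.119 times in the wild type.

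**Figure D2:**
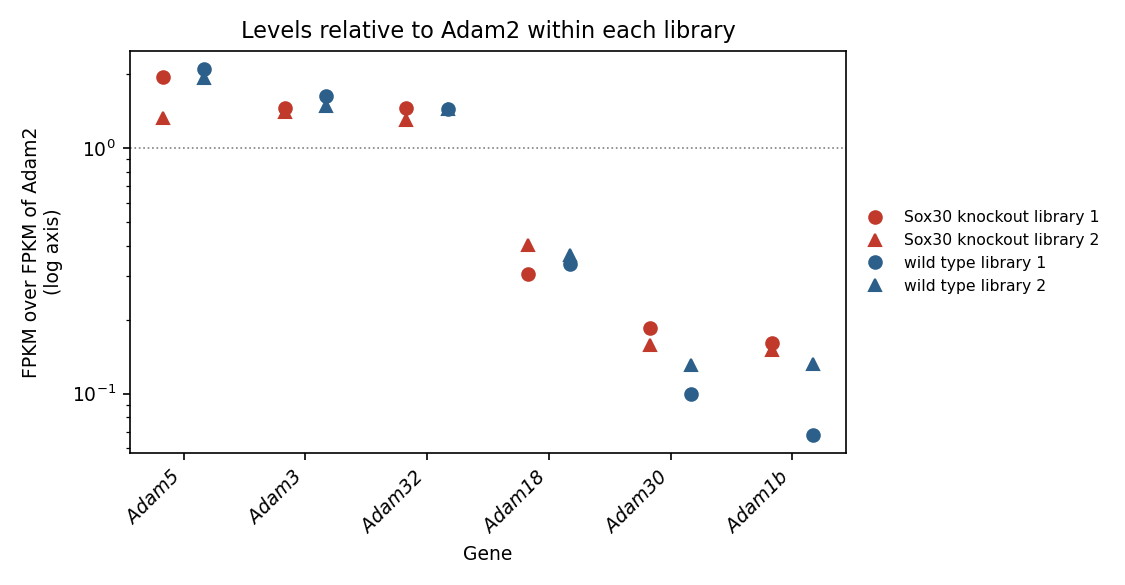
Level of 6 testis ADAM genes divided by the level of Adam2 in the same library (log axis), for 2 Sox30 knockout libraries (red) and 2 wild-type libraries (blue). The dotted line marks a level equal to Adam2; Adam3 and Adam32 lie between 1.30 and 1.63 times Adam2 in the 4 libraries.

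The change of a member was tested against that of Adam2 by fitting each gene's log2 level minus that of Adam2. Of the other 9 members 3 differed from Adam2 as lower, Adam1a by -2.78, Adam24 by -3.32 and Adam29 by -3.62 on the log2 scale (limma adjusted p = 2.2e-05, 3.1e-07 and 1.5e-08). In the same fit 9.24% of all genes tested were lower and 8.79% higher than Adam2 in their change. Every gene in that fit carries the same Adam2 values, so limma treated the spread as known and these p-values are too small. Without moderation of the spread, a setting added after the values were seen, 0 of all 9124 genes passed in limma, so its count of 0 members says nothing about them. Adam1a, Adam24 and Adam29 had unadjusted p = 0.0289, 0.0123 and 0.0195 there. The moderated count was also 0 without wild-type library 1.

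Adam24, a testase, is one of the testis ADAMs that keep the features of an active protease, and its product is found on mature mouse sperm. Adam24 was at 0.194 FPKM in knockout library 1 and listed at 0 in knockout library 2, against 15.6 and 15.4 FPKM in the wild-type pair. The wild-type libraries were nearly equal and far above both knockout ones. Its mean was 0.0968 ± 0.137 FPKM in knockout cells, 0.623% of the wild-type mean of 15.5 ± 0.114 FPKM (SD, n = 2 each). The log2 change of Adam24 was -3.92 (SE 0.35, limma adjusted p = 0.00130).

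Adam29 was at 0.0203 FPKM in knockout library 1 and listed at 0 in knockout library 2, against 19.05 and 16.6 FPKM in the wild-type pair. In the wild type it ranked 2920th and 3395th of all symbols by level, close to Adam1a and Adam24. The log2 change of -4.22 was the largest of the 10 (SE 0.34, limma adjusted p = 0.00105). Its call ended without wild-type library 2 (limma adjusted p = 0.0653) and that of Adam24 without either wild-type library (limma adjusted p = 0.0602 without library 1 and 0.0722 without library 2).

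The other testis ADAM genes, listed as related genes rather than as members, fell as well. Of 13 listed symbols 9 were in the tables, and 9 of 9 fell in the limma test, against 13.4% of all genes tested, with a median log2 change of -2.47. All of these calls ended without wild-type library 2 and most without wild-type library 1, as over all genes tested. The median log2 change was then -2.38 and -2.26, against -0.13 and -0.36 over all genes tested. Adam6a was listed at 0 in both knockout libraries, against 9.10 and 12.9 FPKM in the wild-type pair (limma adjusted p = 0.00191). Adam6b was listed at 0 in both knockout libraries, against 4.21 and 6.37 FPKM in wild-type cells (limma adjusted p = 0.00516), and Adam4 at 0 in both knockout libraries, against 2.99 and 3.54 FPKM in wild-type cells (limma adjusted p = 0.00802).

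Adam26a and Adam25, which encode further testases, were low but counted in the knockout. Adam26a was at 1.09 and 1.41 FPKM in knockout cells, against 13.9 and 17.1 FPKM in wild-type cells, and Adam25 at 1.54 and 0.681 FPKM in knockout cells, against 9.98 and 10.9 FPKM in wild-type cells. Adam26b was at 1.33 and 0.761 FPKM in knockout cells and at 12.3 and 8.70 FPKM in wild-type cells. Adam39 kept the most of its level, at 4.41 and 2.41 FPKM in knockout cells and 15.9 and 15.4 FPKM in wild-type cells, a mean of 21.8% of the wild type. Adam34 was at 0.967 and 0.790 FPKM in knockout cells and 4.90 and 5.92 FPKM in wild-type cells, and Adam21 at 0.152 and 0.0608 FPKM in knockout cells, against 2.63 and 2.97 FPKM in wild-type cells. The call of Adam34 held in 7 of 13 other settings. Their 50-base words were shared in part, at 28.2% of Adam25 with Adam39, 28.7% of Adam26a with Adam26b and 29.5% of Adam6a with Adam6b, so the separate values within these pairs are uncertain.

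ADAM genes known mainly outside the testis were low in the sorted cells of both genotypes, at most 1.07 FPKM, for Adam15 in wild-type library 2. All 14 such genes, among them Adam10 and Adam17, which encode the main shedding proteases of body cells, had a mean below 1 FPKM and were not tested. Of the 14, 6 had both knockout values below both wild-type values and 1, Adam19, had both above. Adam19 was at 0.165 and 0.0175 FPKM in knockout cells and 0.0103 and 0.00739 FPKM in wild-type cells. The genes named here were picked after their values were seen, and Adam10, Adam17 and Adam9 are all among the 6. Adam10 was at 0.0933 and 0.0621 FPKM in knockout cells and 0.290 and 0.533 FPKM in wild-type cells, and Adam17 at 0.0365 and 0.0648 FPKM in knockout cells and 0.454 and 0.753 FPKM in wild-type cells. Adam9, which lies next to Adam32, was listed at 0 in both knockout libraries, against 0.135 and 0.413 FPKM in the wild-type pair.

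The changes are also given by gene structure, a split noticed after the values were seen and described here without a test. In GENCODE M21 Adam2, Adam3, Adam5, Adam18 and Adam32 have 20, 21, 21, 19 and 22 coding exons. The other 14 testis ADAM genes described, members and related genes together, have a single coding exon each. At an unadjusted limma p under 0.05 there were 12 of those 14 genes and 0 of the 5 genes with many coding exons. Over all genes tested 2860 of 9124 were under it. After adjustment 12 of the 14 fell, and Adam1b and Adam30 did not pass. Of the 5 genes 0 passed, where 13.4% of all genes tested fell. Without knockout library 1 the counts were 12 of 14 and 5 of 5, against 33.7% of all genes. Without wild-type library 1 they were 4 and 0, and without wild-type library 2 they were 0 and 0, with 10 and 0 at an unadjusted p under 0.05 in either case. The median log2 changes were -2.48 for the 14 and -0.67 for the 5. Coding lengths were alike, from 2091 bases for Adam26a to 2466 bases for Adam3. Level separated the same groups, with wild-type means of 65.7 to 373 FPKM for the 5 and 2.80 to 21.7 FPKM for the 14. The part of level in the changes was not tested. The 14 include near copies, with coding sequences 95.6% identical for Adam25 and Adam39, 94.0% for Adam26a and Adam26b and 94.6% for Adam6a and Adam6b.

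**Figure D3:**
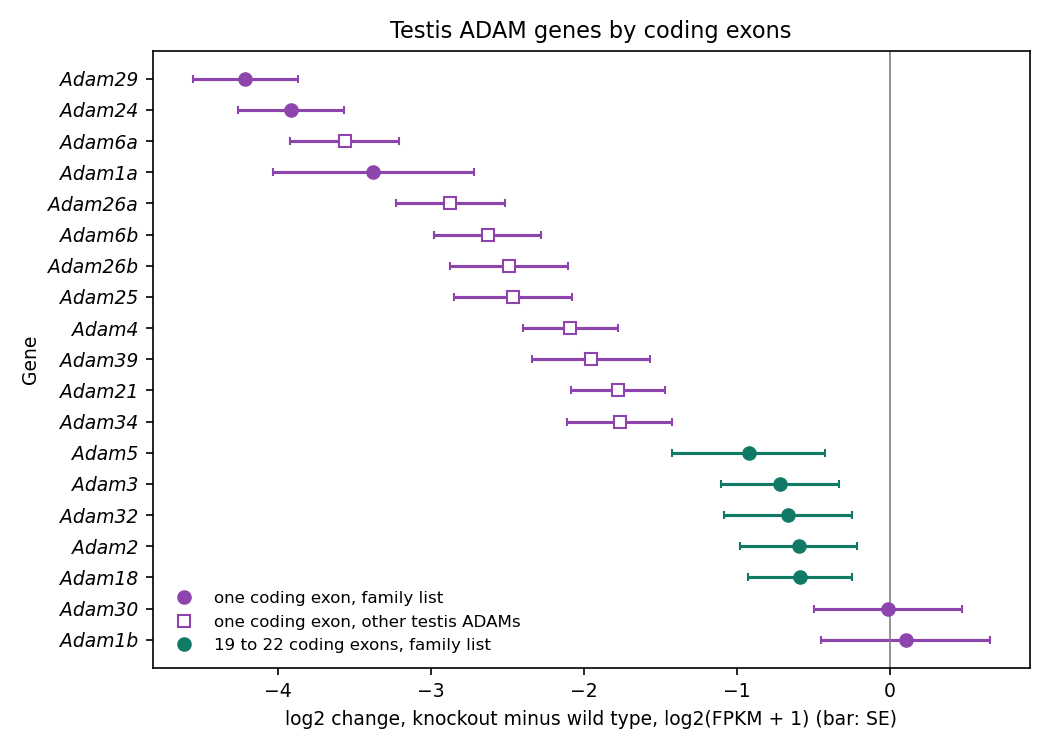
Log2 change, knockout minus wild type on the log2(FPKM + 1) scale, with its limma standard error, for 10 testis ADAM family genes (filled circles) and 9 other testis ADAM genes (open squares). Genes with 1 coding exon (purple) run from -4.22 for Adam29 to 0.10 for Adam1b, and genes with 19 to 22 coding exons (green) lie between -0.92 and -0.59.

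Position went with this split in part. Adam18, Adam3, Adam5 and Adam32 lie side by side on chromosome 8 with no other protein-coding gene between them in RefSeq, and 0 of these 4 passed. Adam24, also on chromosome 8, lies in a separate group with Adam25 and Adam39, and all 3 fell. Adam26a, Adam26b and Adam34 on the same chromosome fell too, as did Adam4, Adam6a, Adam6b and Adam21 on chromosome 12. Among all genes tested, on any chromosome, 13.4% fell. Adam29 stands apart from the group of Adam3 and that of Adam24 on chromosome 8, and Adam2 lies on chromosome 14.

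Genes that handle the ADAM proteins in the germ cell were followed from lists of related genes. Of 10 chaperones and folding enzymes of the endoplasmic reticulum 2 fell, 0 rose and 8 did not pass in limma, with a median log2 change of -0.46. That count is near the 13.4% lower over all genes tested. The 2 that fell are testis forms needed for surface ADAM3 in the mouse. Pdilt, a testis protein disulfide isomerase homologue, was at 0.323 and 1.69 FPKM in knockout cells, against 30.3 and 48.4 FPKM in wild-type cells (log2 change -4.38, SE 0.49, limma adjusted p = 0.00274). Calr3, or calsperin, was at 2.0 FPKM and 0 in the knockout, against 36.9 and 27.3 FPKM in wild-type cells (log2 change -4.24, SE 0.59, limma adjusted p = 0.00612). Calmegin, encoded by Clgn and picked after its values were seen, is the testis chaperone that assembles fertilin, and it was at 214 and 171 FPKM in knockout cells and 176 and 277 FPKM in wild-type cells (limma adjusted p = 0.713). The calls of Pdilt and Calr3 ended without either wild-type library, and fewer of all genes tested fell in those settings too. More folding genes fell without knockout library 1, as did more of all genes tested. The median log2 change of the folding genes was -0.75 without wild-type library 1 and -0.13 without library 2, against -0.36 and -0.13 over all genes.

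Of 12 listed factors needed for or bound to ADAM3 on sperm, 11 were in the tables and 9 were tested. Of these 3 fell, 0 rose and 6 did not pass in limma, with a median log2 change of -0.90, where 13.4% of all genes tested fell. At an unadjusted limma p under 0.05 there were 6 of the 9, against 2860 of all 9124 genes tested. This adds Tex101 and Rnase10 as lower and Cmtm2b as higher. Prss37, a protease-like protein, was at 1.41 FPKM and 0 in the knockout, against 91.7 and 58.3 FPKM in wild-type cells (log2 change -5.58, SE 0.53, limma adjusted p = 0.00158). Prss55, a membrane-bound serine protease, was listed at 0 in both knockout libraries, against 40.8 and 29.5 FPKM in the wild-type pair (limma adjusted p = 7.5e-04). Ace, the angiotensin-converting enzyme with a germ-cell form, fell to 6.76 and 5.10 FPKM in knockout cells, against 20.6 and 17.1 FPKM in wild-type cells (log2 change -1.52, SE 0.35, limma adjusted p = 0.0362), a call that held in 7 of 14 other settings. The calls of this list ended without wild-type library 2, and of them only that of Prss55 held without wild-type library 1. More of its genes fell without knockout library 1. Calls over all genes tested moved the same way in each of these settings.

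The genes of this list described next were picked after their values were seen. Tex101, which encodes a germ-cell surface protein needed for ADAM3, was at 88.0 and 73.8 FPKM in knockout cells and 167 and 137 FPKM in wild-type cells (limma adjusted p = 0.0960). Lypd4 was at 1281 and 889 FPKM in knockout cells and 1422 and 1125 FPKM in wild-type cells, and Cmtm2b at 2340 and 2692 FPKM in knockout cells and 1567 and 1267 FPKM in wild-type cells (limma adjusted p = 0.622 and 0.09999). Rnase10 was at 5.37 and 0.213 FPKM in knockout cells and 8.94 and 10.9 FPKM in wild-type cells (limma adjusted p = 0.153). Pgap1, too low to test, was at 0.193 FPKM and 0 in the knockout and 2.24 and 1.28 FPKM in wild-type cells.

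Of 9 proprotein convertase genes 3 were tested and 1 fell, where 13.4% of all genes tested fell. Pcsk4, the germ-cell convertase that trims sperm ADAMs, was at 31.8 and 13.2 FPKM in knockout cells and 8.59 and 15.0 FPKM in wild-type cells. Its groups overlapped and its log2 change of 0.80 did not pass (SE 0.52, limma adjusted p = 0.337). Without knockout library 2 Pcsk4 passed as higher, with a change of 1.41 (limma adjusted p = 0.00208), and without knockout library 1 its change was 0.20. Pcsk1 was listed at 0 in both knockout libraries, against 3.901 and 2.85 FPKM in the wild-type pair (limma adjusted p = 0.00878), a call lost without wild-type library 2 (limma adjusted p = 0.0653). Furin, a convertase of most body cells that was also picked after its values were seen, was at 0.297 FPKM and 0 in the knockout and at 0.0483 and 0.0695 FPKM in wild-type cells and was too low to test.

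**Figure D4:**
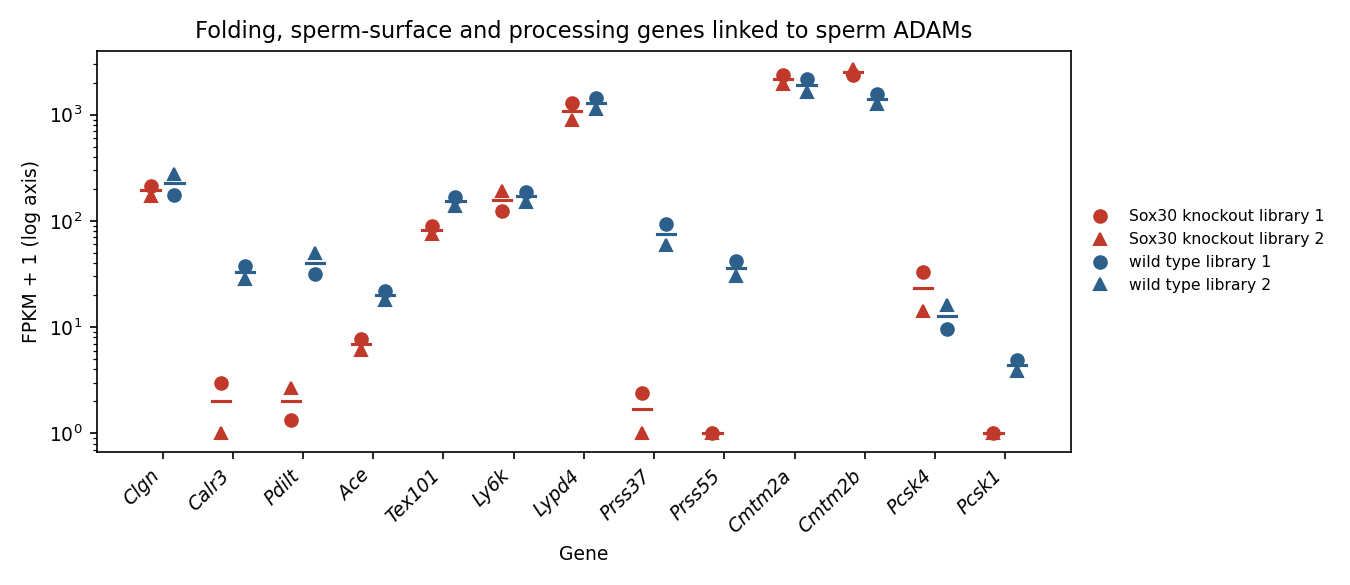
Level (FPKM + 1, log axis) of genes for folding (Clgn, Calr3, Pdilt), sperm surface and ADAM3-linked proteins (Ace to Cmtm2b) and convertases (Pcsk4, Pcsk1) in 2 Sox30 knockout libraries (red) and 2 wild-type libraries (blue), with bars at the means. Calr3, Pdilt, Prss37 and Prss55 lie at or below 2.0 FPKM in knockout cells, while Clgn, Lypd4 and Cmtm2a overlap between genotypes.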

How the data were processed

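RNA was sequenced from Hoechst-stained haploid testis cells sorted by fluorescence, with NEBNext Ultra libraries, per the labels' protocols. The authors deposited 1 table of FPKM per library. Cuffdiff, Cufflinks 2.0.2 and TopHat2 2.0.6 and the build mm9 appear in the submitters' processing notes, without roles or settings. Groups and library numbers came from sample titles.

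Each of the 4 tables held 23021 entries for 22552 symbols, and 259 symbols on several entries were summed. No member was among them. Values were transformed as log2(FPKM + 1) without rescaling, and genes with a mean of at least 1 FPKM were fitted with limma 3.58.1 in R 4.3.3 (genotype as the only term, empirical Bayes, trended prior). There were 2 residual degrees of freedom, and the prior added 3.84. Two-sided p-values were adjusted over 9124 genes by the Benjamini-Hochberg method, with a threshold of 0.05, and 95% intervals came from the fit. The fit was also run on simulated data, with spreads shuffled over genes and the same in both genotypes. In the measured log2 values the SD pooled over genes was 0.636 in the knockout pair and 0.364 in the wild-type pair. The simulation therefore differs from the data, and no result here is drawn from it.

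The named genes were the members, Sox30, other ADAM genes with a mean of at least 1 FPKM, and up to 4 called genes of each related list, topped up to 2 by mean level. Members and lists were chosen with earlier results of these data known. Settings tried were pseudocounts of 0.1 and 5, no filter, a mean of at least 5 FPKM, median-ratio and quantile scaling, no trend, each library left out and a replicate block. A GC correction (lowess, span 0.3, GC content known for 98.6% of genes tested), a crossed block and the unmoderated test against Adam2 were added after seeing the data. Exon numbers, overlaps and shared 50-base words came from GENCODE M21, promoters from RefSeq, both on GRCm38, so genes were matched by symbol. Absolute depth is unknown and no counting intervals are given.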

Additional observations from a re-analysis of the deposited data

How the results depend on the processing

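The changes of Adam29, Adam24 and Adam1a were negative under all 14 other settings of the fit. The call of Adam29 held in 13 of them and that of Adam24 in 12. The log2 change ranged from -7.35 to -2.19 for Adam29, -6.51 to -2.01 for Adam24 and -5.12 to -1.93 for Adam1a, whose call held in 10. The count of fallen members ranged from 0 to 8 with a library left out, the moderated count of members lower than Adam2 from 0 to 3, and those over all genes from 0 to 3071 lower and 0 to 984 higher. Without moderation 0 members, and 0 of all genes, differed from Adam2. Genes called higher numbered 113 with a pseudocount of 0.1, 62 with no filter, 272 after median-ratio scaling, 608 after quantile normalization and 321 after the GC correction, and genes called lower numbered 787 with a mean of at least 5 FPKM; the cause was not tested. The median change of all genes was -0.05 after median-ratio scaling, 0.17 after quantile normalization and 0.02 after the GC correction.

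Signs turned only for changes that did not pass. Adam30 was at 0.20 after median-ratio scaling, 0.36 after quantile normalization and 0.47 after the GC correction. With a library left out it ranged from -0.56 to 0.53, and Adam1b from -0.52 to 0.73. The difference from Adam2 was -0.024 after the GC correction for Adam18, and ranged with a library left out from -0.19 to 0.21 for Adam18 and from -0.15 to 0.011 for Adam32.

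The library numbers share only a number. Deviations of same-numbered libraries had a correlation of -0.20 across genes, and a replicate block gave 3 fallen members and 82 genes called higher. With the numbers crossed 390 genes were called higher and 3 members fell. Where a genotype had 1 library left, that library was assumed to vary like the other pair. Unknown read depth limits what can be said of levels near 0.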
